A study of Mus musculus with 4 samples.

Results

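The complement system of the middle ear was read from 38 mouse genes, chosen by name as components, regulators and receptors of complement, out of 32360 genes or unnamed accessions with a probe on the array. The 38 genes have 49 probes, and each gene was read by its brightest probe. Total RNA from ear tissue, taken from the temporal bone area with the middle ear, was hybridised to 4 two-colour arrays. Each array paired an extract named DEP (diesel exhaust particles), carrying the red dye Cy5, with an extract named CON, taken here as the untreated control, carrying the green dye Cy3. The mice were male BALB/c animals of 6 to 10 weeks. Exposure was by inhalation, 1 h daily for 5 days, and tissue was taken on day 14. The arrays are described as biological replicates. The study used 9 mice, and how many of them stand behind 1 extract is not stated in the sources used here, so p-values measure the spread between these arrays. The dyes were never swapped, so a dye preference of a transcript and an effect of exposure cannot be told apart. The direction of every ratio rests on the source names in the sample labels, because the treatment labels list both DEP and none under Cy5, and all signs given here would turn if the dyes had been exchanged. For nearly all of the genes checked that the study names, the sign obtained from these labels is the reverse of the direction in its text, and the study's PCR of some of them, not analysed here, is described as running with its text.

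Complement is a cascade of plasma and cell surface proteins that marks particles and microbes for uptake and drives inflammation. It starts by the classical pathway (C1q with its proteases C1r and C1s), the lectin pathway (mannose-binding lectins, ficolins and collectins with the MASP proteases) or the alternative pathway (factors B and D with properdin). All routes meet at C3 and end in the pore formed by the terminal components. The liver makes most of the plasma proteins, while macrophages are the main source of C1q and properdin is made mostly by leukocytes, and complement components are found in middle ear effusions.

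Of the 38 genes, 26 were fully measured, which here means that the brightest probe stood well above background in Cy5 and in Cy3 on every array. A further 6 (C6, C7, Cfi, C5ar1, Mbl2 and Colec11) were measured on some arrays only, and 6 (C8a, C8b, C9, Masp1, Mbl1 and C4bp) were not well above background in either dye on any array. The classical pathway was fully measured in 7 of 7 genes and the alternative pathway with C3 in 4 of 4. The regulators and the receptors were so in 5 of 7 and 5 of 6, the lectin pathway in 3 of 7 and the terminal pathway in 2 of 7. Ratios on at least 3 arrays, the minimum for a test, were present for 32 of the 38 genes.

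In limma's moderated test of the 4 log2 ratios against 0, adjusted by Benjamini-Hochberg over 31577 probes, 0 of the 32 complement genes had an adjusted p under 0.05. The same held for 0% of the 25679 genes tested, and 0 members did so with the ordinary test. The adjusted p of the members ranged from 0.156 to 0.989. An unadjusted p under 0.05 was found for 3 members (C1ra and C7 higher, Clu lower in the DEP channel) beside a background of 18.7% of all genes tested. C7 was not well above background in the control channel on most arrays. Among the 26 fully measured members it was found for 2 (C1ra higher and Clu lower), against 12.6% of all genes so measured (6.55% higher and 6.07% lower). Of the 32, the number was 6 without array 1 (C1ra, C5ar1, C7, Clu, Fcnb and Vsig4), where 17.8% of all genes passed. It was 2 (C7 and Clu) without array 2 and without array 4, where 11.2% and 18.8% of all genes passed, and 1 (C7) without array 3, where 3220 of 26818 genes passed. No mean ratio of a member over the 4 arrays reached 2-fold, against 6.74% of all genes and 3.15% of the fully measured ones. Without array 1 the means of Fcna and C5ar1 did, but the share of all genes past 2-fold in that setting was not counted. The control signal of C5ar1 was mostly not above background. An exact two-sided sign-flip test of 4 ratios cannot give a p below 0.125, and none is given for single genes.

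The mean log2 ratio was above 0 for 17 of the 26 fully measured members, or 65.4%, against 54.4% of the 18341 genes measured as fully. Over the 26 genes the median of the mean ratios was 0.12, and over the 18341 genes it was 0.03. Without array 4 both medians were 0.03, and without array 1 they were 0.21 and 0.02. With normexp and loess they were 0.08 and -0.00, and with normexp and median centring 0.41 and 0.26. The arrays differed more than this. The median of the 26 members was -0.19 on array 1, 0.10 on array 2, 0.10 on array 3 and 0.37 on array 4, while that of the 18341 genes stayed between -0.01 and 0.08. On array 4 the ratio was above 0 for 23 of the 26 members (53.6% of all fully measured genes) and on array 1 for 6 (48.9%). On array 2 it was above 0 for 16 of 26 (60.3%) and on array 3 for 18 of 26 (50.8%). The members were therefore mostly lower in the DEP channel on array 1 and mostly higher on array 4.

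**Figure D1:**
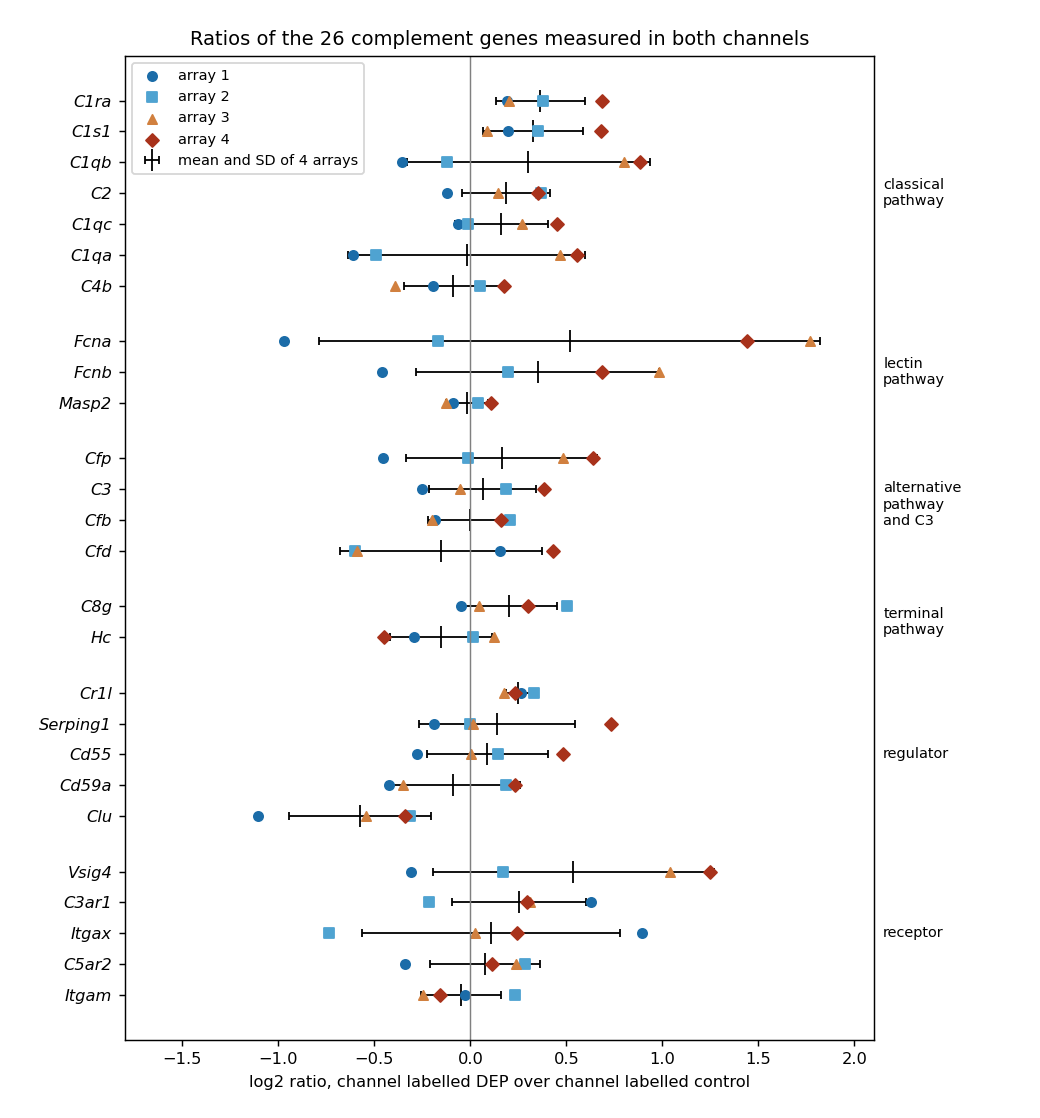
Log2 of the DEP signal over the control signal (horizontal axis) for the 26 fully measured complement genes, grouped by pathway or role. Coloured symbols are the 4 arrays and the black tick and bar are their mean and SD. Clu lies below 0 and Cr1l, C1ra and C1s1 lie above 0 on every array, whereas Fcna spans from -0.97 to 1.77.

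Signals are given below after the authors' dye normalization and a quantile step between arrays, in arrays 1 to 4 order, and are not compared between genes. The recognition molecule C1q is built from 3 chains encoded by the neighbouring genes C1qa, C1qb and C1qc. The signal of C1qa was 2379, 2783, 1489.6 and 1625 in the control channel and 1556, 1978, 2061 and 2391 in the DEP channel. Its DEP signal was below the control signal on arrays 1 and 2 and above it on arrays 3 and 4, and the ranges of the channels overlapped. The log2 ratios of -0.61, -0.49, 0.47 and 0.56 gave a mean of -0.02 ± 0.62 (SD, n = 4 arrays; adjusted p = 0.971 from limma). C1qb had control signals of 1463, 1752, 989 and 1114 and DEP signals of 1141, 1611, 1722 and 2057. Its mean ratio was 0.30 ± 0.63 (adjusted p = 0.563 from limma), with the same split between the arrays. C1qc varied less, with control signals of 3317, 4001, 3667 and 3475 and DEP signals of 3171, 3969.9, 4419 and 4754. Its mean ratio was 0.16 ± 0.24 (adjusted p = 0.548 from limma). For all 3 chains the SD between arrays exceeded the mean and the ranges of the channels overlapped, so that no difference between the channels was larger than the spread between arrays.

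Read by their brightest probes, the genes of the proteases that C1q activates were higher in the DEP channel on all 4 arrays. C1ra, which encodes C1r, had control signals of 2139.6, 1852, 2702 and 2004 and DEP signals of 2443, 2411, 3105 and 3219. The mean was 0.36 ± 0.23 on the log2 scale (SD over 4 arrays, standard error 0.13), a 1.29-fold difference, with an unadjusted p = 0.0402 and an adjusted p = 0.252 in limma. The second C1ra probe, also fully measured, had ratios of -0.03, 0.06, -0.23 and 0.42. Its mean was only 0.05 ± 0.27, so the difference and its shared sign rested on 1 of 2 probes. C1s1, which encodes C1s and lies beside C1ra, had control signals of 1627, 1409, 2188 and 1365 and DEP signals of 1863, 1796, 2319 and 2189. Its ratio was 0.33 ± 0.26 (standard error 0.14, adjusted p = 0.297 from limma). Ratios above 0 on every array were found for 3 of the 26 fully measured members (C1ra, C1s1 and Cr1l), beside 15.4% of all genes measured as fully. The mouse has close copies of both genes, C1rb and C1s2, and array probes may bind both copies of a pair. Their own probes gave means of 0.07 and 0.22.

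Downstream in the classical pathway, C2 and C4b supply the C3 convertase. Their mean ratios were 0.19 ± 0.23 for C2, from -0.12 to 0.37 over the arrays, and -0.09 ± 0.25 for C4b, from -0.40 to 0.18. Neither mean was larger than its SD, and C4b also has a close copy in the mouse genome.

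In the lectin pathway, the ficolins are soluble pattern recognition proteins. Fcna, which had the largest SD of the fully measured members, encodes ficolin-A, a product of macrophages and liver. Its control signal was 1144, 1463, 379.9 and 574, and its DEP signal was 584, 1302, 1293 and 1560.1. The control channel was therefore lowest on array 3 and the DEP channel lowest on array 1, and the ranges overlapped. Its log2 ratios were -0.97, -0.17, 1.77 and 1.44, and their mean was 0.52 ± 1.30 (SD over 4 arrays). Its standard error was 0.52 and limma gave an adjusted p = 0.606. An SD at least as large was found for 3.79% of the 18341 fully measured genes. Fcnb, the ficolin of neutrophils and their precursors, had control signals of 1302, 1564, 733 and 1209 and DEP signals of 945, 1791, 1451 and 1941. Its ratio was 0.35 ± 0.63 (adjusted p = 0.504), above 0 on 3 of 4 arrays. The protease gene Masp2 differed least, at -0.02 ± 0.11, with its other probe that was measured at -0.10 ± 0.20. Mbl2, a mannose-binding lectin, passed background on 1 array, in Cy5, and no fold is given. The collectin gene Colec11 passed background on 4 arrays in the DEP channel and on 3 in the control channel. Its ratios on arrays 1 to 3 were 0.22, 0.46 and 0.02, and that on array 4 is not given because the control signal there, 22.4, was not well above background.

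In the alternative pathway, properdin (Cfp), which stabilises the C3 convertase, had control signals of 4325, 4763, 3288 and 3444 and DEP signals of 3151, 4714, 4598 and 5366. Its log2 ratio was 0.16 ± 0.50 (adjusted p = 0.698 from limma), with the ranges of the channels overlapping. Factor B (Cfb) had a mean of -0.00 ± 0.22. Factor D (Cfd), also called adipsin because fat cells make it, had ratios of 0.16, -0.60, -0.59 and 0.43 and a mean of -0.15 ± 0.53. The 8 adipocyte markers had medians of -0.35, 0.42, -0.03 and 0.85 on the same arrays, and their part in Cfd was not tested.

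C3, the component on which all routes converge, had control signals of 19946, 18879, 28196 and 15683 and DEP signals of 16719.6, 21446, 27143 and 20442. The channels overlapped, and neither was higher throughout. Its mean log2 ratio was 0.06 ± 0.28 (standard error 0.15, adjusted p = 0.828 from limma), and its other probe gave -0.22 ± 0.20.

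Among the terminal components, which form the membrane pore, only Hc (complement C5) and C8g were fully measured. Hc had a mean ratio of -0.15 ± 0.27. For C8g the control signals were 266, 248, 370.4 and 262 and the DEP signals were 258, 352, 382 and 322. Its ratio was 0.20 ± 0.25, above 0 on 3 of 4 arrays, and its other fully measured probe gave 0.16 ± 0.06. The ratios of C7 were 0.81, 0.46, 0.35 and 0.87, with a mean of 0.62 ± 0.26 (SD, n = 4 arrays; unadjusted p = 0.00669, adjusted p = 0.156 from limma). However, C7 was well above background in Cy3 on 1 of 4 arrays, so neither the size of this difference nor its p rests on a measured control level. C6, with a mean of -0.04 ± 0.33, passed background on 2 arrays in Cy3 and on 3 in Cy5.

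Regulators keep complement from attacking host cells. Clu encodes clusterin, a secreted chaperone that also blocks the terminal complex and is abundant in nervous tissue and secretory epithelia. Its control signals were 48393, 51825, 51144 and 51082 and its DEP signals were 22447, 41741, 35061 and 40310.3. Every DEP signal lay below every control signal, and array 1 had the lowest. The mean was -0.58 ± 0.37 on the log2 scale (SD over 4 arrays, standard error 0.17), a 1.49-fold lower signal on 4 of 4 arrays, with an unadjusted p = 0.0209 and an adjusted p = 0.207 in limma. Signals that did not overlap in this direction were found for 1 of 26 members and for 4.27% of all fully measured genes, and ratios below 0 on every array for 1 of 26 and 10.7%. With normexp background correction and loess the mean of Clu was -0.50. With normexp and median centring of each array it was 0.22, in a setting where the median of all fully measured genes was 0.26. The 7 astrocyte markers had medians of -1.45, -0.23, -0.00 and 0.13 and the 10 neuron markers -2.21, -1.43, -0.57 and 0.25 on arrays 1 to 4. Their part in the Clu ratios was not tested.

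Cr1l (Crry), a rodent membrane regulator that controls C3 activation on host cells, had the smallest SD of the fully measured members. Its control signals were 3656, 3734, 3708 and 3999 and its DEP signals were 4391, 4692, 4180.4 and 4705. The DEP channel was higher on every array and the ranges did not overlap, as for 7.47% of all fully measured genes. The mean was 0.25 ± 0.07 on the log2 scale (SD over 4 arrays, standard error 0.10), or 1.19-fold, with an unadjusted p = 0.0553 and an adjusted p = 0.28 in limma. The membrane regulators Cd55, which dissociates convertases, and Cd59a, which blocks pore formation, had means of 0.09 ± 0.32 and -0.09 ± 0.35. Serping1, the C1 inhibitor, had ratios of -0.19, -0.00, 0.01 and 0.73, and its other probe had -0.18, -0.00, 0.29 and 0.72. Its mean was 0.14 ± 0.41, and without array 4 it was -0.06. Cfi, the protease that inactivates C3b, passed background on 2 arrays in Cy3 and on 3 in Cy5.

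Of the receptors, Vsig4 is a macrophage receptor for C3 fragments. Its control signals were 81.7, 83.8, 99.1 and 62.9 and its DEP signals were 66.0, 94.2, 204 and 149. The DEP channel was highest on arrays 3 and 4 and lowest on array 1, and the ranges overlapped. Its log2 ratio was 0.54 ± 0.73 (standard error 0.30, adjusted p = 0.386 from limma), above 0 on 3 of 4 arrays. It was 0.23 with normexp and loess and 0.27 with normexp and median centring. C3ar1, the receptor of the C3 anaphylatoxin, had control signals of 64.0, 79.5, 65.6 and 59.9 and DEP signals of 99.0, 68.4, 81.3 and 73.4. Its ratio was 0.25 ± 0.35 (adjusted p = 0.45), also above 0 on 3 of 4 arrays. C5ar1, the receptor of the C5 anaphylatoxin, had ratios of -0.48, 1.30, 1.56 and 1.20 but was well above background on 1 array in Cy3 and on 3 in Cy5, so its size was not measured. C5ar2 had a mean of 0.07 ± 0.29. The integrin chains Itgam and Itgax, which form complement receptors with Itgb2, had means of -0.05 ± 0.21 and 0.11 ± 0.67. Itgax had ratios of 0.89, -0.74, 0.03 and 0.24, so that its arrays disagreed in sign. The 3 fully measured probes of Itgam had means of -0.05, 0.13 and 0.19.

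**Figure D2:**
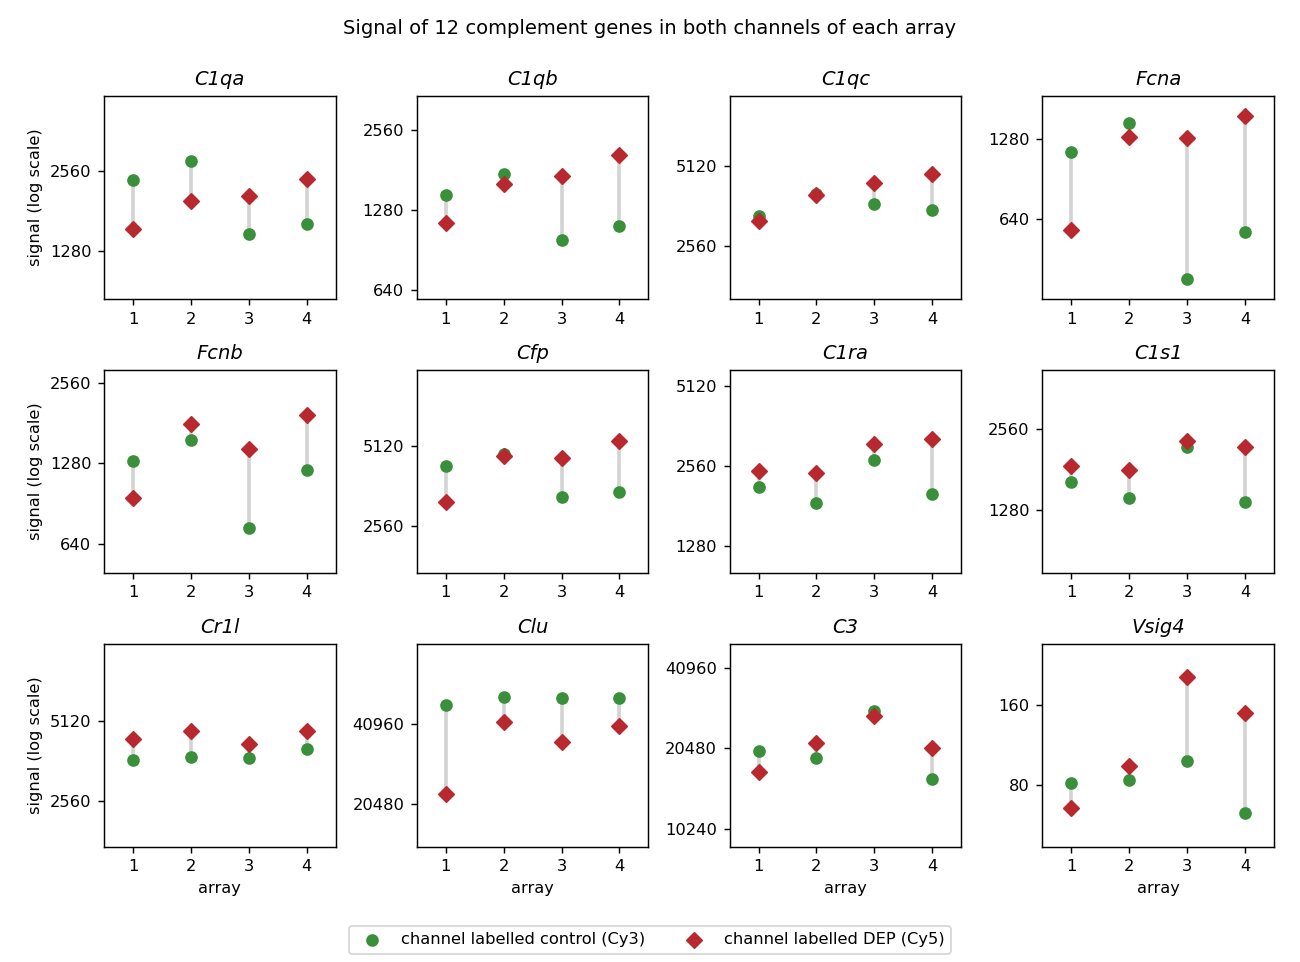
Normalized signal of 12 complement genes on a log axis, with the control channel as circles and the DEP channel as diamonds, on arrays 1 to 4, and a grey line joining the channels of an array. Diamonds lie above circles on every array for Cr1l, C1ra and C1s1 and below them for Clu, while C1qa, C1qb and Fcna change order between arrays.

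A ratio below 0 on arrays 1 and 2 and above 0 on arrays 3 and 4 was shared by 6 of the 26 fully measured members (C1qa, C1qb, C1qc, Cfp, Fcna and Serping1), or 23.1%, and by 6.61% of all 18341 fully measured genes. This pattern was chosen after the values were seen and is given as a description with no test. For 3 of the 6 some ratios were close to 0. These were Serping1 on arrays 2 and 3, C1qc on arrays 1 and 2 (-0.06 and -0.01) and Cfp on array 2 (-0.01). The range of the summed signal of the 9 fully measured markers of macrophages and monocytes was 28358 to 75529 in the control channel and 22000 to 63278 in the DEP channel. Their median ratios were -0.30, -0.00, 0.21 and 0.43, and 1 of the 9 showed the pattern. Among them, the only ones with an unadjusted p under 0.05 were Adgre1, a macrophage surface protein, with a mean of 0.53 ± 0.32 (adjusted p = 0.205 from limma), and Lyz2, a lysozyme of myeloid cells, with -0.66 ± 0.48 (adjusted p = 0.22). The markers thus did not share 1 direction. None of the 10 macrophage markers with a probe was without signal in both channels. The 11 neutrophil and precursor markers had medians of -0.90, 0.16, 0.63 and 0.19, and 3 of 11 had the pattern. Their summed signal ranged from 351723 to 633434 in the control channel and from 290506 to 567909 in the DEP channel. The share of these cells and the RNA per cell cannot be told apart in whole tissue, and the part of either in the complement ratios was not tested.

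The promoters of the genes with this pattern are shown because these members shared their signs across the arrays. The RefSeq table of build GRCm38.p6 holds 33 promoters for 30 of the members, among them those of 4 of the 6 genes with the pattern. The 250 bases before the annotated start are printed 5′ to 3′, and in the RefSeq gene table the Fcna window lies inside the span annotated for its gene and the C1qc window overlaps the edge of its own. The windows are chr2:25627975-25628224 for Fcna, chr4:136886201-136886450 for C1qb, chr4:136892915-136893164 for C1qc and chrX:20931556-20931805 for Cfp, all on the minus strand. Capitals mark GAGGAA, the core bound by the macrophage factor Spi1, and TGCTGA, part of the element bound by MAF factors, or their reverse complements TTCCTC and TCAGCA.
Fcna: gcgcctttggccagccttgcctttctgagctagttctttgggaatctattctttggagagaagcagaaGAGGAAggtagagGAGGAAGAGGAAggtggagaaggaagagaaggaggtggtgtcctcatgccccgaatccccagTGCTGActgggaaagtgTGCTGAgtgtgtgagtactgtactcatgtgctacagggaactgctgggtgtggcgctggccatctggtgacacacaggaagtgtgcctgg
C1qb: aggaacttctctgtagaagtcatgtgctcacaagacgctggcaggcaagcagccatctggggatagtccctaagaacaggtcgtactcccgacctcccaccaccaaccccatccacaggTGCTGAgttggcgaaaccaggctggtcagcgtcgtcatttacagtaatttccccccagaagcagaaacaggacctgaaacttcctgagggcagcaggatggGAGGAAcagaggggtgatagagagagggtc
C1qc: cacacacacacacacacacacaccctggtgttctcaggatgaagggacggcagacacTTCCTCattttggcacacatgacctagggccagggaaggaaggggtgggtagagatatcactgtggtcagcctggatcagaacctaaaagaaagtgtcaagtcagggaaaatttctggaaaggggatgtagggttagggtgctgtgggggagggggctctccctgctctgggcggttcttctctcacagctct
Cfp: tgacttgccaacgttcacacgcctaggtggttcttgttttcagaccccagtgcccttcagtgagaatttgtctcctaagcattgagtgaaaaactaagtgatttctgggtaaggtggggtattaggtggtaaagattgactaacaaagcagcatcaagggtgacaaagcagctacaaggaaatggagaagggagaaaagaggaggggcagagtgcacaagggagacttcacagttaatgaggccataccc
Fcna has GAGGAA starting 182, 169 and 163 bases before the start and TGCTGA at 107 and 90 bases. C1qb has GAGGAA at 30 and TGCTGA at 131 bases, C1qc has GAGGAA on the other strand at 193 bases, and Cfp has no match in this window. Over all member promoters GAGGAA was found in 7 of 33 (21.2%), near the 23.3% of all 32851 promoters in the table, and TGCTGA in 9 of 33 (27.3%) against 16.1% of all. The motifs do not overlap each other in these windows, and a match is a description of the letters only.

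**Figure D3:**
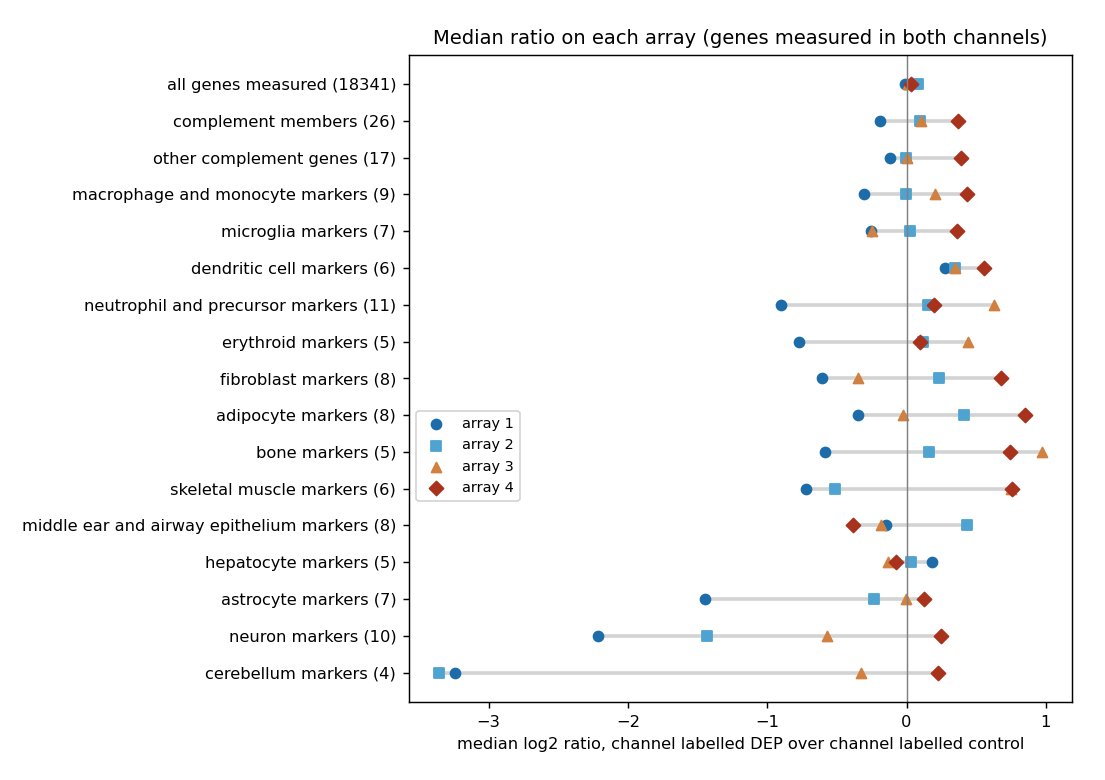
Median log2 ratio of gene lists on each array (coloured symbols), with the number of fully measured genes in parentheses. All genes together stay between -0.01 and 0.08, the complement members range from -0.19 to 0.37, and the neuron and cerebellum markers reach -2.21 and -3.36.

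Further complement genes outside the 38 were read from a list of 22, of which 19 were tested and 17 fully measured. An unadjusted p under 0.05 was found for 0 of the 19 in either direction in limma, beside 18.7% of all genes tested, and 0 had an adjusted p under 0.05. Their medians on arrays 1 to 4 were -0.12, -0.01, 0.00 and 0.39, with the highest on array 4 as for the members, and 2 of the 17 were below 0 on arrays 1 and 2 and above 0 on arrays 3 and 4. Itgb2, the partner of Itgam and Itgax, had ratios of -0.34, 0.18, 1.05 and 0.58. Susd4, a complement inhibitor expressed in brain, had -1.98, -1.22, -0.24 and 0.03.

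Markers of other cell types were read on the same arrays. All 8 markers of middle ear and airway epithelium were fully measured, with medians of -0.15, 0.43, -0.19 and -0.39. This list joins both epithelia, so it does not tell middle ear from airway. Bone (5 fully measured genes; -0.59, 0.16, 0.97 and 0.75), skeletal muscle (6; -0.72, -0.51, 0.75 and 0.76) and erythroid markers (5; -0.77, 0.11, 0.44 and 0.10) were also present, as were fibroblast markers (8; -0.60, 0.23, -0.35 and 0.68). The pattern of the 6 members was seen in 2 of 5 bone, 5 of 6 muscle, 1 of 5 erythroid and 1 of 5 hepatocyte genes, and in none of the microglia, dendritic cell, fibroblast, adipocyte, neuron, cerebellum, astrocyte and epithelium genes. Microglia markers had medians of -0.25, 0.03, -0.25 and 0.36 over 7 genes, and cerebellum markers -3.24, -3.36, -0.33 and 0.23 over 4, with a summed signal of 5009 to 67548 in the control channel and 5549 to 9316 in the DEP channel. Dendritic cell markers had medians of 0.28, 0.35, 0.35 and 0.56 over 6 genes, and 4 of the 7 tested were higher with an unadjusted p under 0.05, as were 2573 of all 25679 genes tested, while 2219 were lower. By the same measure 4 of 10 neuron, 2 of 7 cerebellum and 1 of 8 epithelium markers were lower, while 2 of 8 hepatocyte, 2 of 8 adipocyte and 1 of 5 bone markers were higher. No marker of microglia, neutrophils, fibroblasts, astrocytes, skeletal muscle or erythroid cells passed it. For hepatocytes, the defining markers Alb and Apoa1 were not well above background in either dye on any array, while 5 other listed genes were fully measured, with medians of 0.18, 0.03, -0.14 and -0.07. Pearson's r of the ratios across probes, which are not independent, was -0.22 between arrays 1 and 4 and between 0.14 and 0.61 for the other pairs.

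The ratios of several members depended on how the signals were corrected and the dyes balanced. With normexp and loess all 26 fully measured members kept their sign, and 0 of 38 had an adjusted p under 0.05 in limma. With normexp and median centring, 5 of 38 (C1ra, C1s1, C3, Cr1l and Itgam, all higher in the DEP channel) had an adjusted p under 0.05, against 11.0% of 32360 genes. In that setting the median over the 18341 fully measured genes moved from 0.03 to 0.26. C3ar1, a dim gene, moved from 0.25 to 0.04 (0.11 with loess). C3 moved from 0.06 to 0.70, Cr1l from 0.25 to 0.62, C1ra from 0.36 to 0.73 and Serping1 from 0.14 to 0.71. Leaving out 1 array moved the mean between 0.10 and 1.01 for Fcna, 0.14 and 0.62 for Fcnb and 0.11 and 0.52 for C1qb. For Cfp the range was 0.0041 to 0.37 and for Vsig4 0.30 to 0.82. It was -0.35 to -0.00071 for Cfd, 0.13 to 0.41 for C3ar1, 0.064 to 0.24 for C1qc and 0.099 to 0.28 for C8g. Hc had -0.24 to -0.052, C2 0.13 to 0.29, C5ar2 0.0032 to 0.21 and C1s1 0.21 to 0.41. C1ra had 0.26 to 0.42, Clu -0.66 to -0.40 and Cr1l 0.22 to 0.28.

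**Figure D4:**
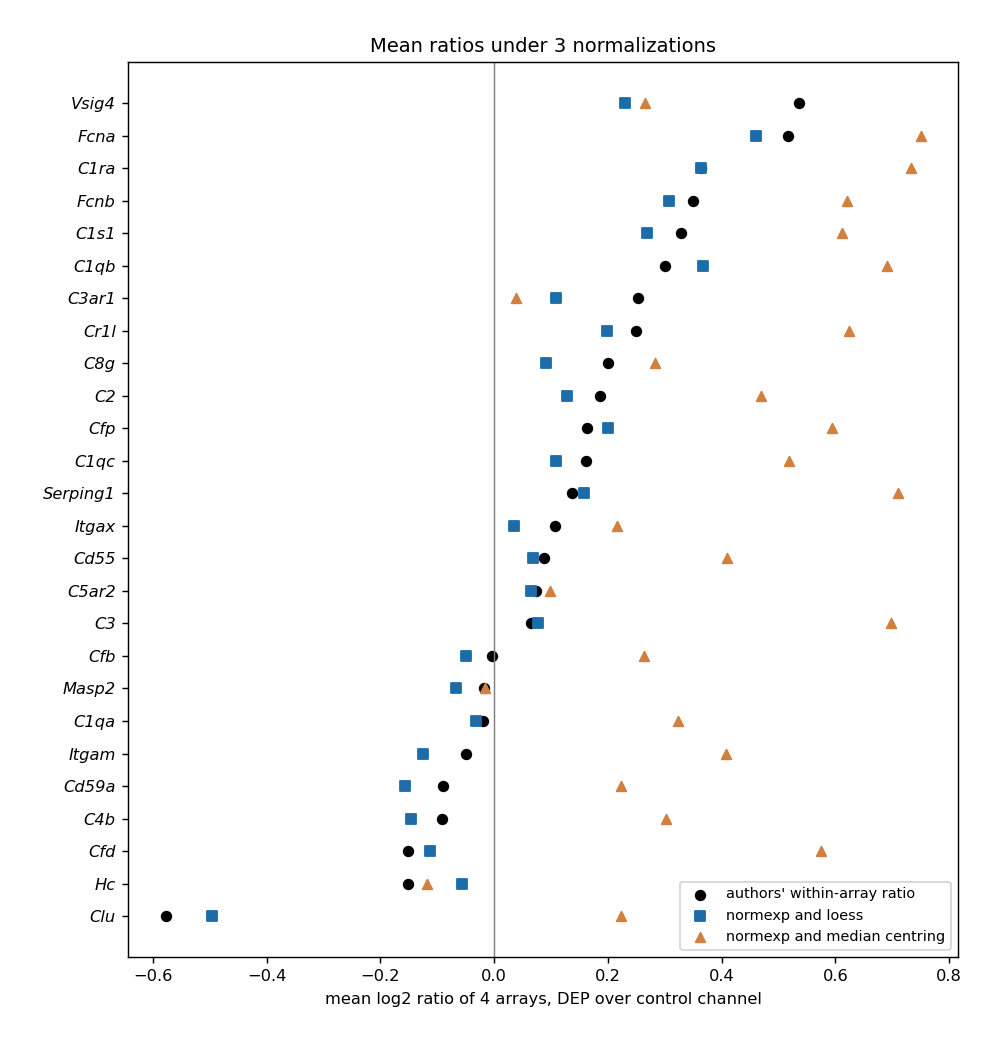
Mean log2 ratio of each fully measured member under the authors' ratios (black circles), normexp with loess (blue squares) and normexp with median centring (orange triangles). Squares lie on the same side of 0 as circles for all 26 genes, while triangles move Clu from -0.58 to 0.22 and C3 from 0.06 to 0.70.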

How the data were processed

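Total RNA of DEP and control ears was labelled in Cy5 and Cy3 and hybridised to 4 two-colour Agilent arrays, all on 1 slide and from 1 scan, which leaves no batch to test. The authors quantified spots with Agilent Feature Extraction 10.10.1.1. The deposited intensities are background-subtracted, detrended and dye-normalized within the array, and the deposited ratios are log10 values, Cy5 relative to Cy3. The deposited series table holds the same log10 ratios, rounded. Columns of values without a sample numbered 0. The methods name no test.

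Log10 ratios were converted to log2. Control spots, outlier spots (164 to 274 per array) and spots with no ratio (6179 to 8558 of 43020) were dropped but saturated ones were not, replicate spots of each probe were averaged, and 31577 of 39429 probes had ratios on at least 3 arrays. Accessions were named with the RefSeq gene table of GRCm38.p6 (27655 probes). Gene spans came from the same table and promoters from the RefSeq promoter table of that build. An intercept was fitted with limma 3.58.1 in R 4.3.3 (lmFit and eBayes, two-sided, prior degrees of freedom 1.98). Signals per channel were made comparable between arrays with limma's Aquantile. The share of probes well above background was 65.4% to 68.9% in Cy5 and 59.2% to 68.0% in Cy3. In simulated data for DEP over control on 31577 probes, 58 of 100 probes changed by 2 and 28 of 100 changed by 1 on the log2 scale were called. Tables were made with pandas 2.3.3 and numpy 2.4.6 in Python 3.11.15, and figures with matplotlib 3.10.9.

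The members and lists were chosen with earlier results of these data known. Arrays were given in full for members that were fully measured and had an unadjusted p under 0.05, 1 sign on all arrays or 1 of the 10 largest mean ratios; C1qa, C1qc, C3, Cfd, Cfp, Serping1, Itgax, members measured in part, Adgre1, Lyz2, Itgb2 and Susd4 were added after their values were seen. The lists cover other complement genes, macrophages and monocytes, microglia, dendritic cells, neutrophils, erythroid cells, fibroblasts, adipocytes, bone, skeletal muscle, middle ear epithelium, hepatocytes, astrocytes, neurons and cerebellum. Alternatives were normexp (offset 50, on median spot signals, the raw signals used here) with loess or median centring, the series table, filters on dim probes, outlier spots kept, an intensity trend, an ordinary test, the mean of a gene's probes and leaving out each array.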

Additional observations from a re-analysis of the deposited data

How the results depend on the processing

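The number of members with an unadjusted p under 0.05 was 3 of 32 (18.7% of all genes tested) and became 5 of 32 with an intensity trend (19.0%), 5 of 38 after loess (15.6%), 18 of 38 after median centring (39.5%; both on normexp signals), and 1 of 32 with the mean of a gene's probes (18.2%); it ranged from 1 to 6 with 1 array left out. Of the 3, 2 were higher, as were 2573 of all 25679 genes tested. In the same settings 4, 4, 15 and 0 members were higher. The genes higher there were 2586 of 25679, 2367 of 32360, 7577 of 32360 and 2444 of 25727. With an array left out, 1 to 5 members and 1453 to 2834 of all genes were higher. Lower were 1 member and 2219 genes, and 3 members and 5203 genes with median centring. These 3 (C8b, Masp1 and Mbl1) were not well above background in either dye on any array. With the ordinary test 0 members and 1567 genes were lower. With an array left out it was 0 to 1 members and 1479 to 2650 genes. Members past an adjusted p of 0.05 numbered 0 and were 5 with median centring, against 11.0% of all genes there. Members past 2-fold numbered 0 and ranged from 0 to 2 with an array left out, where the share of all genes was not counted. The cause of these differences was not tested. With median centring, where the median of all fully measured genes moved from 0.03 to 0.26, the mean log2 ratio changed sign for C1qa (0.32), C4b (0.30), Cfb (0.26), Cfd (0.58), Cd59a (0.22), Clu (0.22) and Itgam (0.41). With the mean of a gene's probes it changed sign for C3 (-0.078), C5ar2 (-0.028) and Itgam (0.088). Leaving out 1 array changed the sign within ranges of -0.21 to 0.18 for C1qa, -0.042 to 0.17 for C3, -0.18 to 0.010 for C4b, -0.074 to 0.061 for Cfb, -0.061 to 0.25 for Serping1, -0.043 to 0.21 for Cd55, -0.20 to 0.022 for Cd59a, -0.060 to 0.019 for Masp2, -0.14 to 0.016 for Itgam and -0.16 to 0.39 for Itgax. All 26 signs held with loess, with outlier spots kept and with the series table, which holds the same ratios rounded. The trend, the ordinary test and both filters use the same ratios of these 26 genes, so their signs could not change there. No paired analysis was possible because the test already uses ratios paired within each array, which leaves 1 group and no further number to block on. Among genes with an unadjusted p under 0.05, 53.7% were higher in the DEP channel, and 46.9% after loess, 59.3% after median centring and 60.7% with the ordinary test. The arrays' number and the dim signal of 12 members limit the precision.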
